A study of Danio rerio with 7 samples.

Results

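Adult zebrafish carry oxygen in red blood cells whose haemoglobin is built from alpha chains (genes hbaa1 and hbaa2) and beta chains (hbba1 and hbba2), each holding a haem group. The first step of haem synthesis in the red cell lineage is made by alas2, the erythroid 5-aminolevulinate synthase, while alas1 serves other tissues. These 5 genes were followed through their RefSeq accessions on the array. Of the 5, 3 had a probe: hbaa2 and hbba2 with 1 each and alas2 with 2, which gave 4 of the 43603 distinct probes and 3 of 11484 named genes. No probe carried the accession of hbaa1 or hbba1, so neither gene is described. In the GRCz12tu annotation the adult globin genes stand in 1 cluster, with the globin gene ba1l among them, and hbba2 lies within the annotated span of hbaa2. The alpha genes resemble each other closely, as do the beta genes, and whether a probe also bound the transcript of a sister gene was not tested.

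The RNA came from whole-animal homogenates of 7 adult full siblings of a hybrid cross (AB x unknown), 4 labelled female (numbers 4, 7, 8 and 9) and 3 labelled male (5, 8 and 9). Each fish was hybridised once, labelled with Cy5, against a common reference of whole adult hybrid animals labelled with Cy3. The series relates expression among the siblings to copy number variants. In whole animals fewer red cells and less globin RNA per red cell cannot be told apart.

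The arrays differed in ways that touch every result below. Females 7 and 9 and male 9 were scanned in session 1, male 8 alone in session 2, and females 4 and 8 and male 5 in session 3. In session 3, 29.7% to 33.7% of probes stood well above background in Cy5, and 45.7% to 65.2% did in the other sessions. The file headers give the same slide and array position to females 4 and 7, to female 8 and male 9, and to female 9 and male 5, and place male 8 alone on another slide. The library labelled male 5 went against its label: the egg coat gene zp2.1 had a log2 ratio of -0.09 in it, against -0.47 to 0.12 in the females, -5.63 in male 8 and -4.14 in male 9. Zp3b, another egg coat gene, was at 0.60 in it, against -5.17 and -4.82 in males 8 and 9. The yolk precursor genes vtg4 and vtg5 were at 2.11 and 1.11 there, against -1.74 and -1.69 in male 8 and -2.10 and -1.86 in male 9. In the females vtg4 ran from 1.70 to 3.82 and vtg5 from 1.96 to 2.97, so that library lay below every female for vtg5 and far above males 8 and 9. Every comparison of the sexes is therefore given with and without the library labelled male 5.

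The alpha globin gene hbaa2 (probe A_15_P162766) was highest in males 8 and 9. Females 4, 7, 8 and 9 had log2 ratios of fish over reference of 0.56, 2.24, 0.24 and 2.59. Male 8 had 4.95, male 9 had 3.69, and the library labelled male 5 had the lowest value of the 7, 0.084. Males 8 and 9 lay above all 4 females, as they did for 25.2% of the 22705 tested probes. The females themselves split by scan session, with females 4 and 8 of session 3 low. The Cy5 spot signal of hbaa2 ran from 58.5 in the library labelled male 5 to 946 in male 8, with local backgrounds of 43 and 52.5, and was well above background in 6 of the 7 fish. The reference signal of this probe ran from 49.5 to 86 in Cy3, over local backgrounds of 16 to 36.5, and was well above background on all 7 arrays.

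The beta globin gene hbba2 (probe A_15_P110978) also had its highest log2 ratios in males 8 and 9. Females 4, 7, 8 and 9 had values of 1.40, 0.50, 2.50 and 1.11. Male 8 reached 5.74 and male 9 reached 3.06, with 0.68 for the library labelled male 5. Again males 8 and 9 lay above all 4 females, as for 25.2% of tested probes, while the females of session 3 here had the higher ratios. The probe was well above background in both channels on all 7 arrays and saturated on none.

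**Figure D1:**
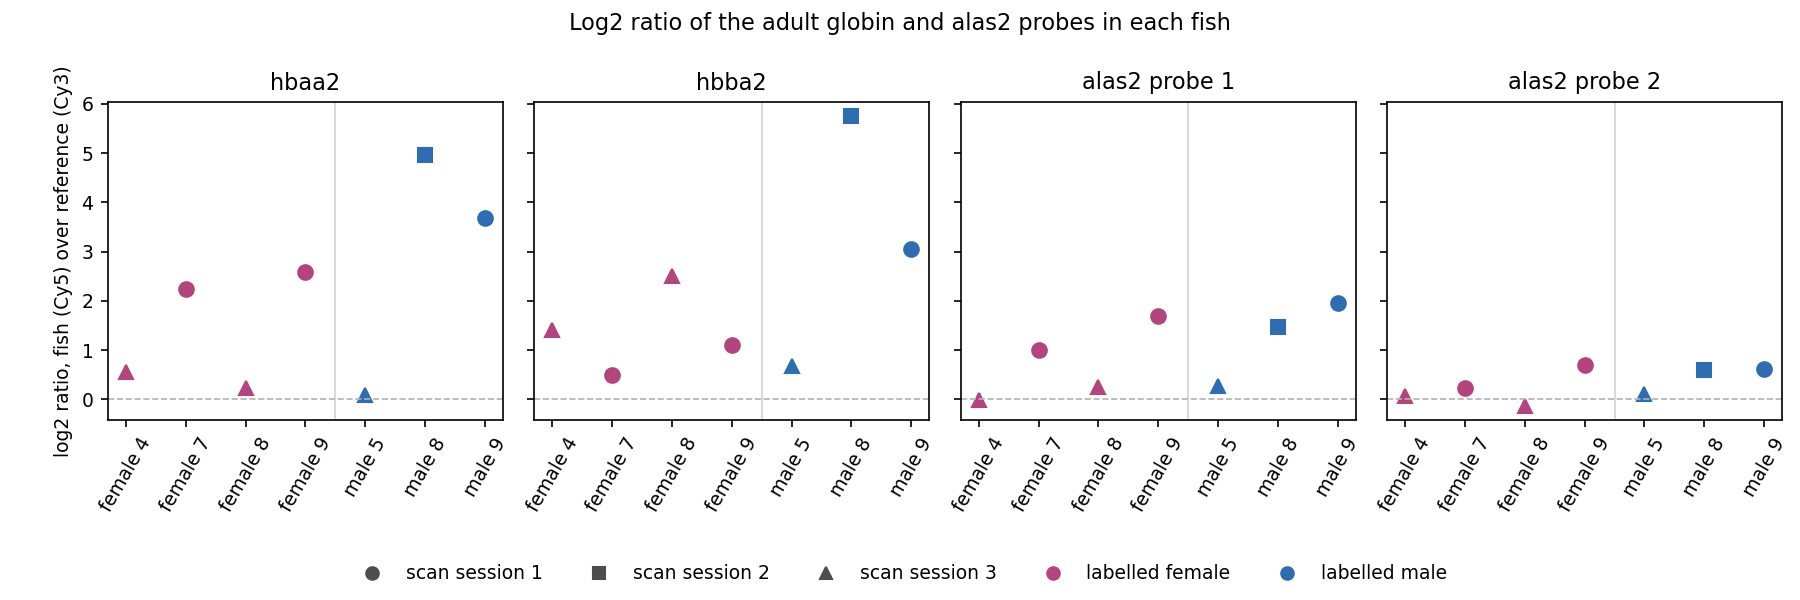
Log2 ratio of each fish (Cy5) over the common reference (Cy3) for the 4 probes, 1 point per fish, coloured by labelled sex and shaped by scan session. For hbaa2 (4.95 and 3.69) and hbba2 (5.74 and 3.06) males 8 and 9 stand above the 4 females, and for both alas2 probes they do not. They stand above the 4 females for 25.2% of all tested probes.

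For alas2, the first probe (A_15_P205966) gave log2 ratios of -0.0031, 1.00, 0.25 and 1.68 for females 4, 7, 8 and 9. Males 8 and 9 had 1.48 and 1.95, and the library labelled male 5 had 0.26. Female 9 lay between males 8 and 9, so these groups overlapped. The second probe (A_15_P210731) cleared the background by the scanner's criterion in 4 of the 7 fish in Cy5 and on 1 array in Cy3. Its log2 ratios ran from -0.12 in female 8 to 0.69 in female 9, with males 8 and 9 at 0.60 and 0.63. Female 9 was thus above both males on this probe. No alas2 spot was saturated.

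The reference channel itself differed between scan sessions at hbba2. After subtraction of the local background its Cy3 signal was 4236, 4712 and 4549 on the arrays of females 7 and 9 and male 9 (session 1). It was 70, 129 and 65 on those of females 4 and 8 and the library labelled male 5 (session 3), and 301 on that of male 8. The mean of session 1 was 51.1 times that of session 3, while the median spot well above background in Cy3 on all arrays was 1.97 times brighter (13548 spots). Of those spots 99.96% had a smaller ratio than hbba2. The reference signal of hbaa2 (1.17 times) and of the first alas2 probe (1.24 times) differed less than that of the median spot. Both were dim, at 33 to 49.5 and 27 to 49 after background subtraction, beside array medians of 22 to 39. Their ratios between sessions therefore say little. A log2 ratio of hbba2 from session 1 is therefore set against a far higher reference signal than one from the other sessions, and fish of different sessions are hard to compare by it.

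**Figure D2:**
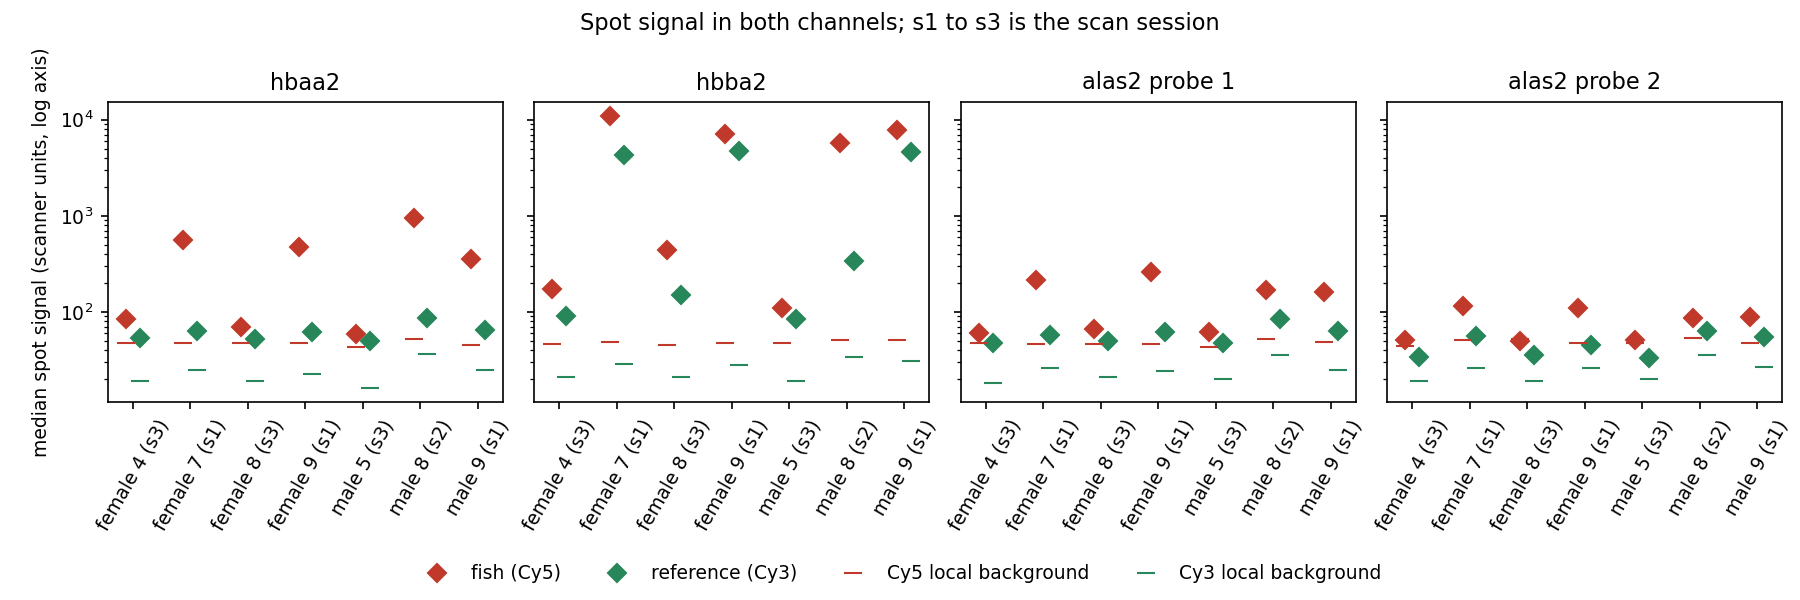
Median spot signal in scanner units (log axis) of the fish (Cy5) and of the reference (Cy3) for the 4 probes, with the local background of each spot as a dash and the scan session beside each fish. The Cy3 signal of hbba2 lies between 4265 and 4740 in session 1, at 335 in session 2 and between 84 and 150 in session 3.

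To look at the fish without the reference, the Cy5 channel was normalized by itself (quantile, log2 scale). By this measure hbaa2 stood at 7.08, 7.43, 6.79 and 7.75 in females 4, 7, 8 and 9, at 10.69 and 9.33 in males 8 and 9, and at 6.70 for the library labelled male 5. Hbba2 stood at 8.02, 11.12, 9.47 and 11.52 in the females in the same order, at 13.03 and 13.22 in males 8 and 9, and at 7.63 for the library labelled male 5. Without the reference, the females of session 1 had more hbba2 signal than those of session 3, the reverse of their order by ratio. The first alas2 probe was between 6.42 and 7.13 in the females, at 8.10 and 8.07 in males 8 and 9 and at 6.81 in the library labelled male 5. Males 8 and 9 were above all 4 females on each of the 4 probes by this measure, as they were for 33.9% of the 22705 tested probes.

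Within a fish, the globin chains did not keep a fixed distance. The log2 ratio of hbaa2 exceeded that of hbba2 by 1.74 in female 7, 1.48 in female 9 and 0.63 in male 9, all of session 1. It was below that of hbba2 in the other fish, with differences of -0.85 in female 4, -2.26 in female 8, -0.60 in the library labelled male 5 and -0.79 in male 8. The sign of this difference followed the scan session in all 7 fish, and the reference signal of hbba2 moved with it.

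The comparison of the sexes over all 7 fish found no difference past the threshold. By limma, the female minus male log2 difference was -1.50 ± 1.19 for hbaa2 (SE, adjusted p = 0.6) and -1.78 ± 1.12 for hbba2 (adjusted p = 0.548). The alas2 probes were at -0.50 ± 0.53 (adjusted p = 0.685) and -0.23 ± 0.24 (0.682). None of the 4 member probes was called, and 0% of the 22705 tested probes were, with 1525 at an unadjusted p under 0.05. Labelled males and females overlapped for all 4, whereas for 1.77% of tested probes every labelled male was above every female. The spread among the labelled males was wide, with hbba2 at a mean of 3.16 ± 2.53 (SD, n = 3) against 1.38 ± 0.84 (SD, n = 4) in the females.

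With the library labelled male 5 left out, both globin probes were higher in males 8 and 9 than in the 4 females. Hbaa2 differed by -2.91 ± 0.77 (SE, adjusted p = 0.0361), a 7.54-fold higher mean ratio in the males, and hbba2 by -3.02 ± 0.82 (adjusted p = 0.0395), 8.12-fold. The hbba2 means of both groups join scan sessions with very unlike reference signals, so the size of its difference is uncertain. The alas2 probes, at -0.98 ± 0.48 (adjusted p = 0.187) and -0.39 ± 0.24 (0.283), did not pass. That made 2 of 4 member probes called, both higher in males, where 12.1% of all tested probes were called in that direction and 25.4% in either. Groups did not overlap for the same 2 probes, with males 8 and 9 higher, and for 25.2% of all tested probes. The median difference of the 4 member probes was -1.95, beside -0.05 over all tested probes.

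The 2 calls rested on few fish. Without female 4 neither globin probe passed (adjusted p = 0.0743 for hbaa2 and 0.0792 for hbba2). Without male 8 neither passed, and the differences were -2.28 for hbaa2 (adjusted p = 0.188) and -1.68 for hbba2 (0.179), the lone male 9 being taken to vary as the females do. Hbaa2 also lost its call without female 8 (0.0541) and without male 9 (0.0656), and hbba2 without female 7 (0.081) and without female 9 (0.0835).

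For the globins, but not for alas2, the differences within scan sessions had opposite signs. In session 1, females 7 and 9 differed from male 9 by -1.27 ± 0.23 for hbaa2 (SE) and by -2.25 ± 0.30 for hbba2. This sets a single male, whose spread was taken from the females, against 2 fish. Before normalization male 9 was not above both females. The background-subtracted Cy5 and Cy3 signals of hbaa2 were 519 and 38 in female 7, 424 and 39.5 in female 9, and 309 and 40 in male 9. For hbba2 they were 10985 and 4236, 7127 and 4712, and 7762 and 4549. With the session as a block in the 6 fish the estimates were the same, since that fit draws on those 3 fish. Its limma adjusted p was 0.0328 for hbaa2 and 0.0482 for hbba2, and it called 2501 of 22705 tested probes higher in the males. In session 3 the library labelled male 5 was below females 4 and 8 for both globins, at 0.31 for hbaa2 and 1.27 for hbba2 (adjusted p = 1 for both by limma). The alas2 probes were at -0.61 and -0.17 in session 1 and at -0.14 and -0.13 in session 3, and none passed. Without the arrays of session 3, females 7 and 9 against males 8 and 9 differed by -1.90 for hbaa2 (adjusted p = 0.0528) and -3.59 for hbba2 (0.0579). With each array centred on its median in place of loess, the differences without male 5 were -1.52 for hbaa2 (adjusted p = 0.334) and -1.64 for hbba2 (0.28). That centring moved the median of all probes from -0.05 to 0.24.

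From the quantile-normalized Cy5 channel alone, all 4 member probes were higher in males 8 and 9 than in the females. The differences were -2.75 ± 0.41 for hbaa2 (SE, limma adjusted p = 0.00186), -3.09 ± 0.91 for hbba2 (0.0269), and -1.35 ± 0.21 (0.00208) and -0.70 ± 0.21 (0.0269) for the alas2 probes. By this measure 23.8% of all tested probes were called higher in males 8 and 9, so a call was common. Before that scaling the order differed: the background-subtracted Cy5 signal of the first alas2 probe was 171 and 212 in females 7 and 9 against 116 and 110.5 in males 8 and 9. For hbaa2 it was 519 and 424 in these females against 893.5 in male 8 and 309 in male 9. For hbba2 it was 10985 and 7127 in these females against 5649 and 7762 in males 8 and 9. Females 4 and 8 were below males 8 and 9 on each of these probes. These unscaled signals also follow the brightness of the array. The median background-subtracted Cy5 signal was 35 and 23 on the arrays of females 7 and 9, against 11 and 11.5 for males 8 and 9. Within its array, the first alas2 probe was at or above 71.6% and 79.3% of spots in females 7 and 9. In males 8 and 9 it was at or above 88.8% and 88.5%. The second alas2 probe was well above background in 2 of the 4 females. With the library labelled male 5 included, none of the 4 passed.

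**Figure D3:**
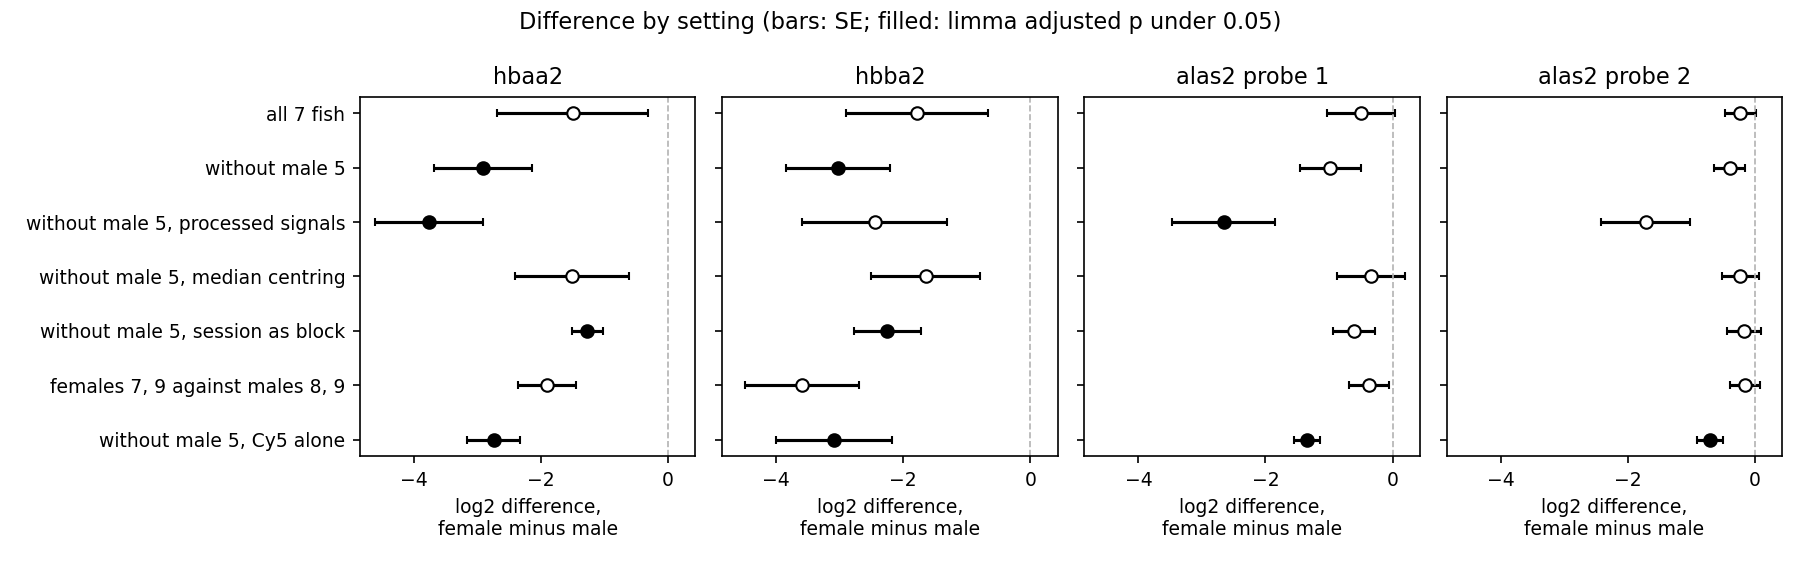
Female minus male log2 difference (bars give the SE) of each probe, by the fish included and by normalization, with filled points for a limma adjusted p under 0.05. Every point drawn lies below 0, and hbaa2 and hbba2 pass without male 5 (-2.91 and -3.02) but not over all 7 fish (-1.50 and -1.78). The fit within scan session 3, where both globins were above 0, is not drawn.

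Spread among the siblings was large for the globins. Pooled over the labelled sexes, the log2 ratio had an SD of 1.84 for hbaa2 and 1.73 for hbba2, beside a median of 0.49 for the 10077 probes that every array measured well above background in Cy5 without saturation. Of those probes, 99.3% had a smaller SD than hbaa2 and 98.7% a smaller one than hbba2. Only hbba2 met the filter for that set itself. The hbaa2 probe and the alas2 probes were well above background in Cy5 on 6, 6 and 4 arrays. The alas2 probes had SDs of 0.81 and 0.33. These SDs count the library labelled male 5, which went against its label, as a male. With it left out, the pooled SD was 1.12 for hbaa2 and 1.19 for hbba2, beside a median of 0.35. Among the 4 females alone the SD was 1.18 for hbaa2, 0.84 for hbba2 and 0.76 and 0.35 for the alas2 probes, beside a median of 0.33. Of the 10077 probes, 93.2% had a smaller female SD than hbba2 and 91.0% a smaller one than the first alas2 probe. The females' globin values were ordered by scan session, as described above. The reference signal of hbba2 also differed between sessions, and its part in the spread of hbba2 was not tested.

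Of 8 tested enzymes of haem synthesis besides alas2, 2 were higher in the females and 0 higher in males 8 and 9 in the fit without male 5, where 13.2% of all tested probes were called higher in females and 12.1% higher in these males. The list median was 0.37 beside -0.05 for all tested probes. Fech, which inserts iron into the ring, differed by 1.14 ± 0.31 (SE, adjusted p = 0.039). Alas1, the general form of the first enzyme, differed by 1.09 ± 0.31 (adjusted p = 0.0465), while its other 2 tested probes, at 0.26 and 0.91, did not pass. Urod, a decarboxylase midway in the pathway, was at -0.99 (adjusted p = 0.0961). The count was unstable: fech lost its call in 13 alternatives and alas1 in 14, 0 enzymes were higher in the females with median centring, 5 were with Cy5 alone, and 1 was higher in the males once scan session was blocked. Of 8 tested genes of iron uptake and storage none passed, and the brightest, the ferritin gene fth1a, was at 0.68 (adjusted p = 0.149). By Cy5 alone 4 of these 8 were higher in the females. Beside these 4, and the 5 enzymes above, 5840 of all 22705 tested probes were called in that direction by Cy5 alone.

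Genes of the red cell membrane and cytosol were partly higher in males 8 and 9: 6 of 13 passed in that direction, beside 12.1% of all tested probes, and 0 in the other, with a median of -0.50. The count was 0 with median centring and 3 when scan session was blocked. It was 1 without male 8 and with slide as a block, which amounts to leaving out male 8, alone on its slide. With array position as a block it was 0, but that fit sets only female 8 against male 9. That fit called 0 of the 7 egg coat and yolk genes too, so it cannot tell whether red cell genes differ. In the fit without male 5 the largest difference was in ank1a, an ankyrin that ties the membrane to its skeleton (-2.43 ± 0.46, SE, adjusted p = 0.0129). Cahz, a carbonic anhydrase of red cells, was at -1.61 ± 0.24 (0.00588), and its other probe, at -0.20, did not pass. Txnipa, a thioredoxin-binding protein also made in many tissues, was at -2.27 ± 0.63 (0.0425). Named after their values were seen, the anion exchanger slc4a1a was at -1.58 ± 0.33 (0.0169, well above background in 4 of 7 fish) and the band 4.1 gene epb41b at -1.51 ± 0.31 (0.0165). The other 2 tested probes of slc4a1a, at 0.03 and -0.40, did not pass. Among the 7 that did not pass, blvrb and prdx2 were at 0.73 and 0.50, and rhag and hemgn at -0.06 and -0.32. Rhag and hemgn were well above background in 3 and 4 of 7 fish. In the library labelled male 5 the 5 named genes that passed lay between -0.22 and 0.25, and in the females between -0.09 and 2.35.

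Of 8 tested erythroid transcription factors and receptors, klf3 (-1.61 ± 0.22, SE, adjusted p = 0.0042) and ldb1a (-0.98 ± 0.24, 0.0278), a factor and a cofactor also used outside blood, were higher in males 8 and 9. That made 2 of 8, beside 12.1% of all tested probes called in that direction. The other 6 did not pass, and the other tested probe of klf3 (-0.40) and of ldb1a (-0.16) did not either. With median centring 0 of the 8 were called, and ldb1a was at 0.57, above 0. Among other globins, myoglobin (mb, the oxygen store of muscle) was higher in males 8 and 9 by -3.07 ± 0.39 (0.00357) and cytoglobin cygb1 by -1.53 ± 0.33 (0.0188), while the second tested probe of each, at -0.45 and -0.38, did not pass. These were 2 of 6 tested globins, beside the same 12.1% of all tested probes. The remaining 4 tested globins did not pass, with the embryonic alpha chain gene hbae4 at -0.82 (0.0702) and the embryonic beta chain genes hbbe2 and hbbe3 at -0.26 and -0.15. Of 6 genes of globin and haem clearance 0 passed, and the brightest, the haem oxygenase hmox2a, was at -0.14 (0.635).

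Markers of other cells gave no uniform picture. Of 8 tested white cell and thrombocyte genes 0 passed, with a median of -0.16 and the leukocyte actin-binding gene coro1a at -1.13 (adjusted p = 0.128). Of 2 tested vessel wall genes, 1, the receptor tek, was higher in males 8 and 9 (-1.88 ± 0.24, SE, 0.00366), beside 12.1% of all tested probes. With median centring tek was at -0.72 and did not pass (limma adjusted p = 0.328). Of 11 skeletal muscle genes, 4 were higher in males 8 and 9, beside 12.1% of all tested probes, with a median of -1.66, and of -0.31 over all 7 fish. Among the 4 were the calcium pump atp2a1 (-3.34 ± 0.54, 0.00768), casq1b (-2.74 ± 0.58, 0.0181) and the creatine kinase ckmb (-2.16 ± 0.52, 0.0268). Ckmb was saturated on 2 arrays and was at -1.74 (0.177) with those spots left out. The other tested probe of ckmb, at -2.27, did not pass. The muscle count was 0 with median centring. With array position as a block, which sets only female 8 against male 9, it was 0 as well. It was 1 with the session as a block, without male 9, and without male 8, which the slide block repeats. The egg coat and yolk list had all 7 genes higher in the females, with a median of 4.67, but male 5 was left out because of such genes. The egg coat gene zp3b was at 4.87, though its other tested probe, at 0.72, did not pass. Zp3 (5.89, with the outlier spot of male 9 left out) was saturated on 2 arrays and zp2.2 (5.14, or 6.28 without its saturated spot) on 1. Zp2.1 (4.67, or 4.75 without its saturated spot) was also saturated on 1 array. Males 8 and 9 thus had lower egg gene ratios and, for 4 muscle genes, higher ratios than the females, and the part of either in the globin difference was not tested. Over all 7 fish, 0 genes of these lists passed.

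**Figure D4:**
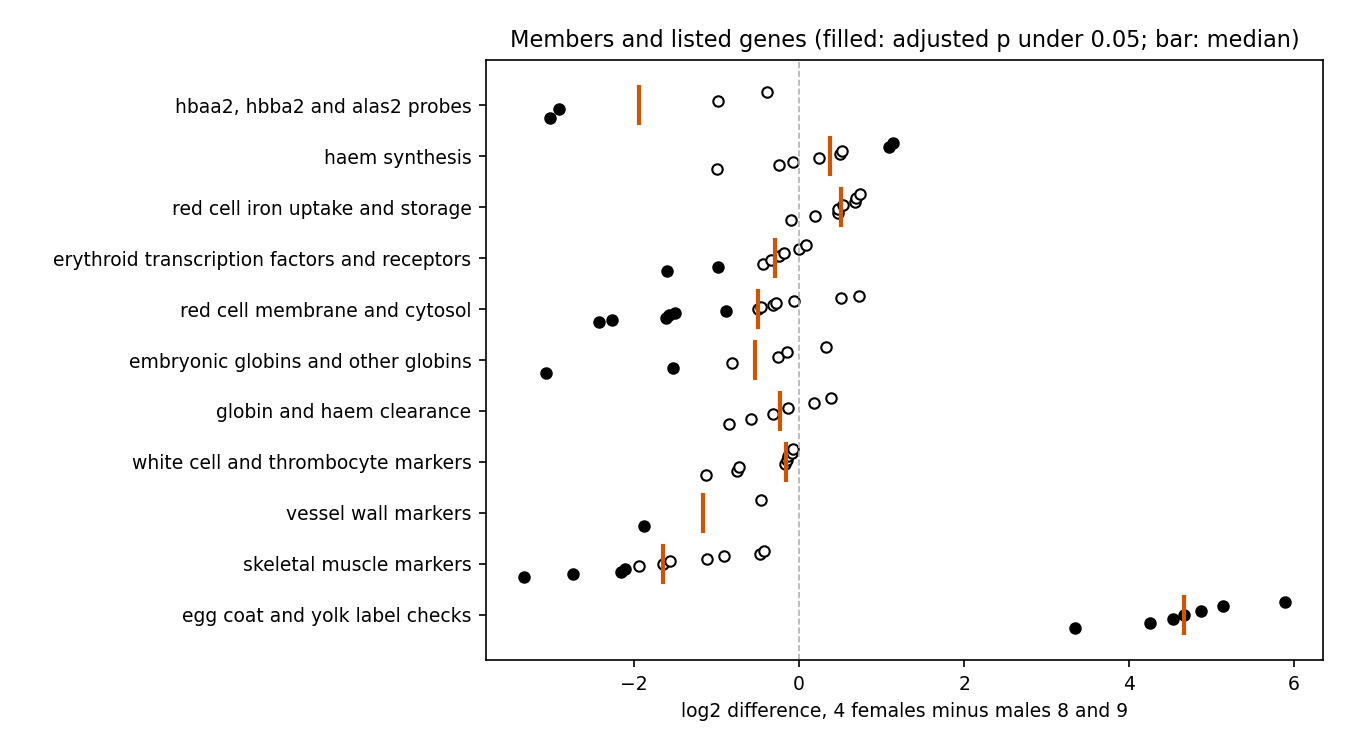
Log2 difference (4 females minus males 8 and 9) of the 4 member probes and of the tested genes of each list, 1 point per probe or gene, filled for a limma adjusted p under 0.05, with the median as a bar. The member probes (median -1.95) and the muscle genes (-1.66) lie to the left, the haem synthesis genes (0.37) near 0 and the egg coat and yolk genes (4.67) to the right.

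The genes with the profile most like each member were found by the root mean square difference between log2 ratios, each centred on its mean over the 7 fish, among 6590 named probes well above background on all arrays. For hbaa2 they were s100a10b (0.369), lpin1a (0.373), ucp1 (0.388), fbp1b (0.411) and prdx5 (0.438), beside a median of 1.86 over all candidates. For hbba2 the nearest 4 were wdfy1 (0.411), srfb (0.51), pleca (0.514) and slc67a1 (0.571), beside 1.87. For the first alas2 probe they were oaz1b (0.146), htatip2 (0.177), ptprfb (0.179), shq1 (0.202) and ift122 (0.206), beside 0.876. The 3 members shared none of these genes. With the scanner software's processed signals, 0 of the 5 genes were the same for each member. For hbaa2, hbba2 and the first alas2 probe, 4, 3 and 0 were the same with median centring. With Cy5 alone 1, 1 and 0 were. The neighbours thus depend on the normalization. With the library labelled male 5 left out, 5, 3 and 4 were the same.

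**Figure D5:**
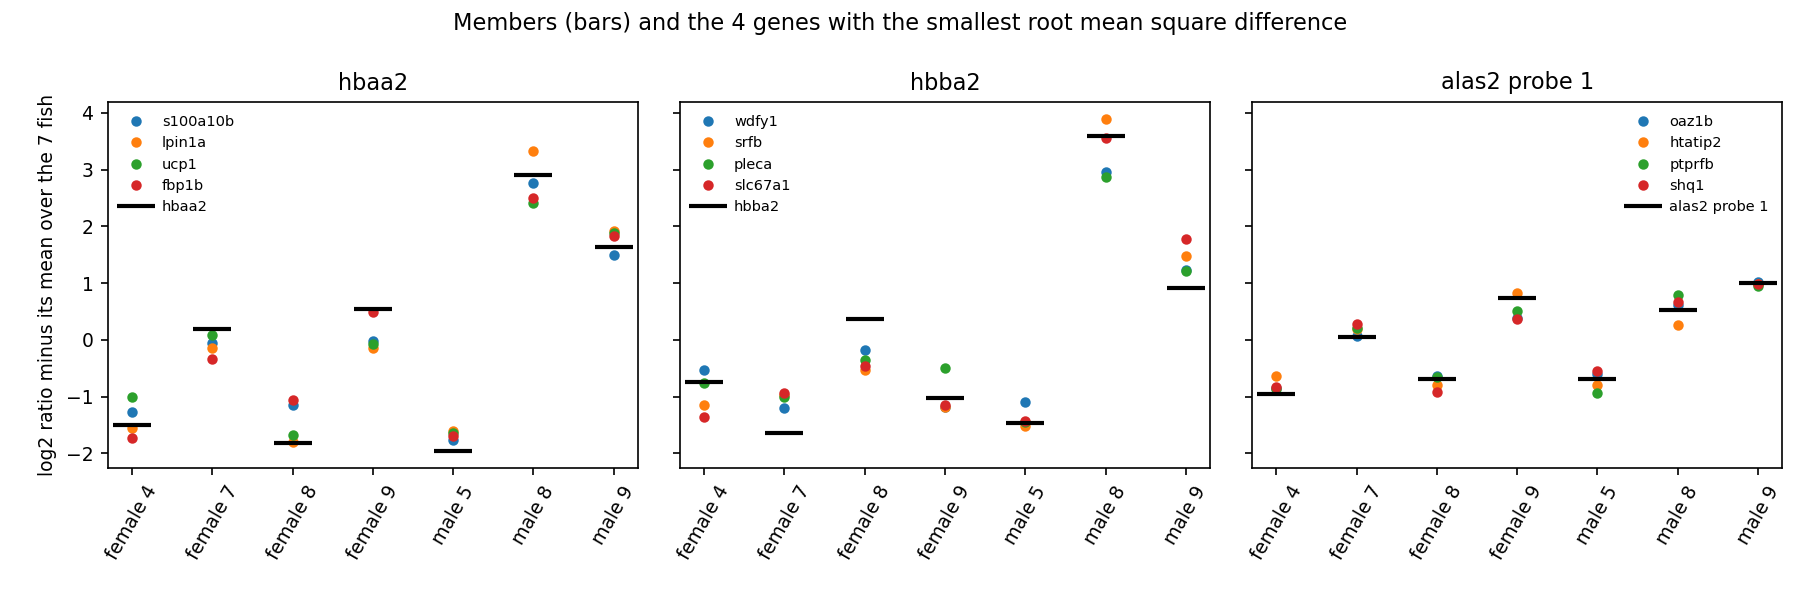
Log2 ratio minus its mean over the 7 fish for hbaa2, hbba2 and the first alas2 probe (bars) and for the 4 genes most like each (points). The genes like hbaa2 and hbba2 peak in male 8, and those like alas2 are highest in male 9.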

How the data were processed

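Per the file headers, the authors scanned 2-colour Agilent arrays (design 019161) and extracted spots with Agilent Feature Extraction 10.5.1.1. The deposited scanner files hold median signal and background intensity per channel, processed intensity, and a log10 ratio. The deposited value table equalled that log10 ratio of Cy5 over Cy3 at all 45220 spots of each array (tolerance 1e-09), and the median of every column was 0. Scale and direction were thus settled, and any further centring by the authors is not stated. The labels put fish in Cy5 and the reference in Cy3, with no dye swap, so dye effects remain in the ratios. The labels' labelling protocol describes genomic DNA although the molecule is total RNA.

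Background was corrected by normexp (offset 50), arrays were normalized by loess, and log2 ratios were averaged over repeat spots. The 1417 control spots and 98 outlier spots were left out. A probe was tested when well above background in Cy5 on at least 3 arrays (22705 probes). Tests used limma 3.58.1 in R 4.3.3, two-sided, with Benjamini-Hochberg adjustment over all tested probes at 0.05. Each fish is 1 array, so the number of arrays limits precision. On simulated data the fits recovered 45 of 50 log2 changes of size 3 over all 7 fish and 42 of 50 without male 5. Every simulated fish had the spread of the females, and none went against its label. The simulation therefore does not test the fits for a library like the 1 labelled male 5, or for scan sessions. Probes were named by RefSeq accession in a GRCz12tu table (16568 probes, 38% named). List genes were matched by symbol and represented by the brightest tested probe.

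The members, lists and rules were chosen with earlier results of these data known. In each list up to 3 genes with the largest difference among those that passed without male 5 are named, or the brightest if none did. The 5 nearest profiles are named per member, apart from 1 that is not reported here. Median signals replaced mean signals, which the spot columns do not hold. Alternatives covered the normalization, offset, dim and saturated spots, scan session, fish number and each fish left out. The Cy5-only values, slide, array position and the fit without session 3 were added after the data were seen.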

Additional observations from a re-analysis of the deposited data

How the results depend on the processing

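Over all 7 fish, 0 of 4 member probes were called and their median difference was -0.9997. That median was -1.52 with processed signals, -1.52 with the deposited value table, -0.33 with median centring, -1.78 under the filter for all 7 arrays (hbba2 alone), -0.43 with scan session as a block, -0.43 with slide as a block and -0.11 with array position as a block. Within scan session 3 it was 0.089, with hbaa2 at 0.31 and hbba2 at 1.27, and within session 1 2 members and 6684 probes were called. With 1 fish left out, 0 to 2 members and 0 to 5757 probes were called and the median ran from -1.95 to -0.43. Without male 5, 2 members and 5757 probes (2999 higher in females, 2758 in males) were called and the median was -1.95. All 4 probes kept their direction under every setting tried there. The median was -2.55 with processed signals and with the deposited table, -0.93 with median centring, -3.02 under the filter for all 7 arrays, -0.94 with the session as a block and within session 1, -1.45 with the slide as a block, -1.23 with array position as a block, and -1.14 without session 3. Members called were 0 with median centring, no filter on dim probes, slide or array position as a block and without session 3. They were 1 with an offset of 10 and under the filter for all 7 arrays, and 4 with Cy5 alone. Probes called were 9447 with processed signals, 9506 with the deposited table, 706 with median centring (676 higher in females, 30 in males), 11239 with Cy5 alone, 3438 with slide and 0 with array position as a block (6305 at an unadjusted p under 0.05). With 1 further fish left out, 0 to 1 members and 3432 to 4804 probes were called and the median ran from -2.15 to -1.45. Hbba2 had an adjusted p = 0.12 with processed signals, where the first alas2 probe passed (0.0358). Ldb1a was at 0.57 with median centring. The cause of these shifts was not tested, apart from those set by fewer fish or probes.

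Numbers 8 and 9 occur in both sexes, and the labels do not say that they pair fish. Deviations from the group means correlated at -0.12 for the 8s and 0.47 for the 9s. Fish of unlike number in the same scan session reached 0.48 (female 7 with male 9, female 8 with male 5). The correlations therefore cannot decide whether the numbers pair fish. With this replicate block the median was -1.67, 1 member passed (hbba2; hbaa2 had an adjusted p = 0.0951) and 4083 probes were called, over 7 or 6 fish alike. The median SD of the members was 1.27, and between 1.05 and 1.72 under the alternatives. The second alas2 probe cleared the background in only 4 of 7 fish, which limits its ratios.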
